A study of Mus musculus with 9 samples.

Results

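Signal of the nuclear receptor NR4A2 was examined on chromatin at 33 genes of insulin, growth factor and AMPK signalling in mouse heart ventricle. The genes were listed by name, and a region of NR4A2 signal was counted for a gene when it touched the gene's RefSeq span (GRCm38) extended by 10 kb on each side. This gave 77 of the 16884 regions in the authors' table, at 30 of the 33 genes, and no region was counted for more than 1 of these genes. Grb14, Stk11 and Egfr had no region. NR4A2 was measured by chromatin immunoprecipitation with sequencing (ChIP-seq) with the antibody 9D12 in 3 control and 3 NR4A2 hearts, each from 1 mouse. NR4A2 mice (Nr4a2-icTg) carried an Nr4a2 knock-in at ROSA26 that is switched on by a Cre recombinase under the Myh6 promoter, which is active in cardiomyocytes, after tamoxifen is given. Control mice were littermates with the inducible Cre, aMHC-MerCreMer, alone. All mice were 8 to 9 weeks old, received 1 injection of tamoxifen at 40 mg/kg and were studied at day 3, so Cre and tamoxifen are common to both groups. Whole ventricle holds other cells besides cardiomyocytes, and a change in the number of cells with signal cannot be told apart from a change in signal per cell.

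Insulin and insulin-like growth factor bind receptor tyrosine kinases, which act through IRS docking proteins, PI3-kinase and PDK1 to switch on AKT. AKT in turn restrains GSK3 and raises glucose uptake and protein synthesis. AMPK is an energy sensor made of a catalytic alpha, a scaffolding beta and a nucleotide-binding gamma subunit. In heart muscle it promotes fuel uptake and oxidation when energy runs low. The ERBB receptors answer neuregulin from the endothelium, and VEGF proteins act back on vessels. NR4A2 binds DNA at a sequence called NBRE, which contains the core AGGTCA shared by many nuclear receptors.

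Signal is given as the authors' CPM, that is, reads scaled by a library's total over all listed regions times a factor of 0.991 to 1.01 that equals edgeR's TMM factor. Libraries held 549700 to 1027394 such reads in control and 637635 to 1035856 in NR4A2 hearts, so that 1 read was worth 0.955 to 1.81 CPM. Fold changes are differences of the mean log2(CPM + 1), NR4A2 minus control, with their standard error, and regions with an adjusted p under 0.05 in limma over all regions were called higher or lower. The scaled totals were 989059 to 1009112, nearly the same in each library, so a change common to all regions cannot be seen. Higher and lower calls are therefore relative to the other regions, and a lower call does not by itself show a loss of bound NR4A2. Input was not analysed here, so control signal is not shown to be NR4A2 binding. As a check of the tissue, each of 7 cardiomyocyte marker genes had a region, with summed signal of 28116 to 42653 CPM in control and 36478 to 45172 CPM in NR4A2 hearts. Regions were listed at 3 of 5 fibroblast, 4 of 5 endothelial, 1 of 4 immune and 1 of 4 smooth muscle and pericyte markers. Summed signal at the endothelial markers was 557 to 667 CPM in control and 396 to 535 CPM in NR4A2 hearts. Of the endothelial marker genes, 2 (Pecam1 and Tie1) had a lower region and 0 a higher one. Of the 7 cardiomyocyte marker genes, 5 had a higher and 1 a lower region. Over all genes with a region these shares were 14.2% and 6.25%. The other 3 lists had no called region. At the immune marker, Cd68, a region with a control mean of 307 CPM lay outside the gene and within 10 kb of Eif4a1 and other genes. Summed signal at this marker was 418 to 460 CPM in control and 340.5 to 375 CPM in NR4A2 hearts. At the smooth muscle and pericyte marker it was 16.3 to 28.2 and 30.6 to 47.3 CPM, and at the fibroblast markers 99.6 to 163 and 88.3 to 146 CPM. The part of these in the results below was not tested, and ChIP signal at a gene is not its expression.

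Signal rose in NR4A2 hearts at 12 of the 77 regions (15.6%, against 14.7% of all regions) and fell at 3 (3.90%, against 3.17%). These shares are near those of all regions. The 12 higher regions lay at 8 genes: the receptor gene Erbb4, the FGF-related gene Fgf12, the adaptor genes Irs1 and Grb10, Pdpk1, the translation regulator gene Eif4ebp1 and the AMPK subunit genes Prkaa2 and Prkag2. The 3 lower regions lay at Akt2, Sgk1 and Vegfb. Genes with a higher region made up 8 of 30 (against 14.2% of all genes with a region) and those with a lower region 3 of 30 (against 6.25%). Genes with more regions have more chances of a call. By regions per gene, a higher one was found at 1 of the 11 members with 1 region (against 5.32% of all such genes), at 3 of the 12 with 2 to 3 (against 19.3%) and at 4 of the 7 with 4 or more (against 39.8%). The median log2 fold change was 0.04 over the 77 regions and -0.06 over all regions. Without NR4A2 mouse 3 the counts were 5 higher and 2 lower regions, at 4 and 2 genes. Without control mouse 3 they were 11 and 1, at 8 and 1 genes. Among the 48 member regions of at least median signal (8442 of all regions), 2 were higher and 1 was lower. Of the calls tested in this setting only that at Sgk1 ended, and called regions of lower signal were not tested. Without depth scaling 5 were higher and 0 lower, and 10 of the 15 calls ended: both at Erbb4, both at Grb10, Prkag2 region 4, and those at Irs1, Prkaa2, Vegfb, Akt2 and Sgk1.

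**Figure D1:**
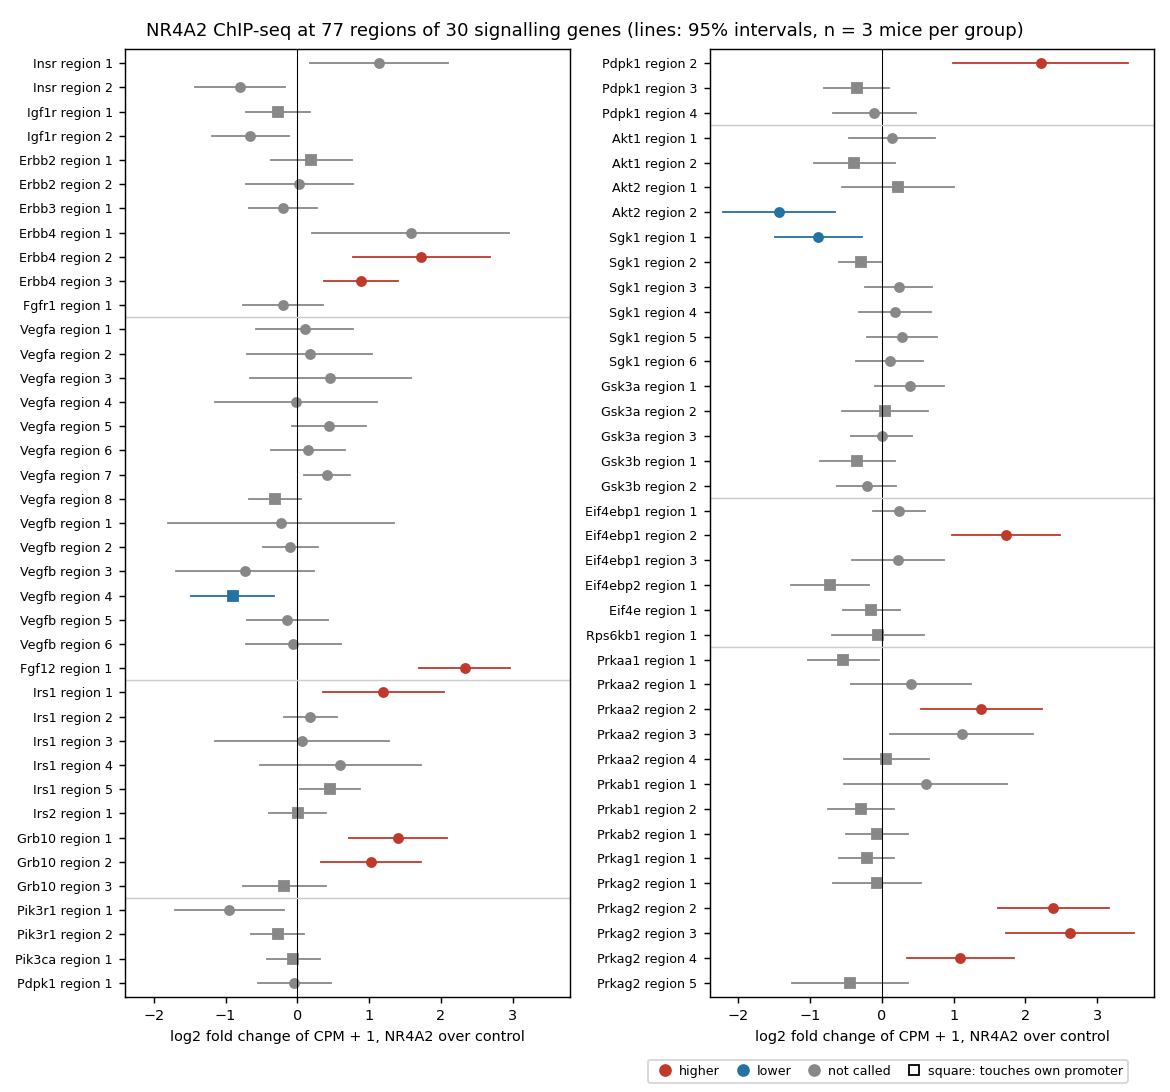
Log2 fold change of CPM + 1 (NR4A2 over control, x axis) with 95% intervals for each of the 77 regions (y axis), numbered along the chromosome within each gene and set apart by role, from 3 mice per group. The 12 higher regions are circles, which touch no promoter window of their gene, while most squares, regions over the gene's own promoter, lie left of or near 0.

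None of these genes had a called gain at a listed promoter window. Eif4ebp1, Erbb3, Fgfr1 and Insr had no listed window, so their promoters were not assessed in this way. RefSeq promoter windows, 250 bases before to 50 after a listed start, were found for 29 of the 33 genes, 48 windows in all, and 27 of them were touched by a region. Of the 25 regions that touched a window of their own gene, limma called 0 higher and 1 lower. At an unadjusted p under 0.05 the counts were 1 and 3, edgeR called 0 and 1, and DESeq2 called 0 and 1. Over the whole table, 1.48% of regions that touched a promoter window were higher and 4.31% were lower. Of the 41 member regions that touched no promoter window of any gene, 12 (29.3%) were higher, against 22.8% of all such regions. The median log2 fold change was -0.21 over the 25 promoter regions (against -0.18 over all regions that touched a promoter window) and 0.41 over these 41 regions (against 0.15 over all that touched none).

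The promoter sequences that the results turn on are shown from 250 bases before the start up to the start, 5′ to 3′ on the gene's strand, from RefSeq (GRCm38.p6). Capitals mark the core AGGTCA or its reverse complement. The Vegfb window was the only one touched by a called region. Igf1r is shown because it also has a core, under a region that was not called. Akt2 is shown because its lower region begins just after this start. The 3 Prkag2 windows are shown because the gains at that gene lie between them.
Vegfb (chr19:6987652-6987901, minus strand): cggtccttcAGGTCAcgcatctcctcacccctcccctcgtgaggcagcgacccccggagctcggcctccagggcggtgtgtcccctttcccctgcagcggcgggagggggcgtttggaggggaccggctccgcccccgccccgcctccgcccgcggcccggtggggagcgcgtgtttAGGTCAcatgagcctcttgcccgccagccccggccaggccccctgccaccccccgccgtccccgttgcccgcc
Igf1r (chr7:67952007-67952256, plus strand): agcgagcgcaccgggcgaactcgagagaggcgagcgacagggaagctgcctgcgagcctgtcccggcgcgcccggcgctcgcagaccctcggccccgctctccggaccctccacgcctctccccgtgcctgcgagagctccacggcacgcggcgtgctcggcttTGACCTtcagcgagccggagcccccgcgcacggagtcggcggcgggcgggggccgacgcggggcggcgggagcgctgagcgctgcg
Akt2 (chr7:27591302-27591551, plus strand): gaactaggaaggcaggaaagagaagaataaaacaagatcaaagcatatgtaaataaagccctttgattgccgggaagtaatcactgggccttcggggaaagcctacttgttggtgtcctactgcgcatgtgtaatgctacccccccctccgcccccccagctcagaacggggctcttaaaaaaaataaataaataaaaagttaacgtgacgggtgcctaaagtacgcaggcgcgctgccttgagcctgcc
Prkag2, outer start (chr5:25100643-25100892, minus strand): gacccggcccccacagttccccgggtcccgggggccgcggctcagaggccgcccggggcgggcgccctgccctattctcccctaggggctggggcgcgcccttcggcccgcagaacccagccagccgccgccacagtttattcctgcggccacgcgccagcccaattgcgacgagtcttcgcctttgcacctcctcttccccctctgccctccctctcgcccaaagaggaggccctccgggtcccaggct
Prkag2, middle start (chr5:24995754-24996003, minus strand): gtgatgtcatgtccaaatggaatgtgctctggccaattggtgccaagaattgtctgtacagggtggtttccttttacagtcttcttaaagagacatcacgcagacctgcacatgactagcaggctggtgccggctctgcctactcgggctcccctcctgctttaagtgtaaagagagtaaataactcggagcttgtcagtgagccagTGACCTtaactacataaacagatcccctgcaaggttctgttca
Prkag2, inner start (chr5:24908510-24908759, minus strand): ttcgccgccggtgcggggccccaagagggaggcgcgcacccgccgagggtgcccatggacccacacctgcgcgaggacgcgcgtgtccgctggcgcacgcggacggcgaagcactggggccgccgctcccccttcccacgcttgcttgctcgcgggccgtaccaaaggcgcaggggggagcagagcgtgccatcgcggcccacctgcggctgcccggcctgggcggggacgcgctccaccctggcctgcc
The Vegfb window held the core at 241 and 73 bases before the start, and only the nearer one lay inside the called region. The Igf1r window held the reverse complement of the core at 86 bases before the start. In the middle Prkag2 window it began 43 bases before the start, where no region was listed. Both strands of all windows were searched for AGGTCA, for NBRE (AAAGGTCA) and for the related ERRE (TCAAGGTCA), both of which contain AGGTCA. The core was present in 8 of the 48 member windows (16.7%), as in 16.3% of the 32851 windows listed for all genes. NBRE was in 0 of 48 windows and in 1.51% of all windows. ERRE was in 2 of 48 windows, both at Sgk1 starts without a region, and in 0.423% of all windows. Sequence of the gained regions was not analysed here, and these matches are letters in a window, not sites of binding.

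Among the receptor genes, Erbb4 was the only one with a call. It encodes a neuregulin receptor of cardiomyocytes and spans 1077 kb on chromosome 1. At region 2 (chromosome 1, 68973247 to 68973746), 134 kb from the start, control hearts 1, 2 and 3 held 11.3, 16.5 and 3.62 CPM and NR4A2 hearts 20.1, 31.5 and 51.7 CPM. All NR4A2 hearts lay above all control hearts, and control mouse 3 had 2 reads there (log2 fold change 1.73 ± 0.48, adjusted p = 0.00560). Region 3 (chromosome 1, 69105752 to 69106598) lay 1.46 kb inside the start and was stronger from the outset. It held 45.1, 44.8 and 38.0 CPM in control and 58.2, 83.5 and 103 CPM in NR4A2 hearts, again without overlap (log2 fold change 0.89 ± 0.26, adjusted p = 0.00919). At region 1, 515 kb from a gene end, the values were 1.02, 7.79 and 9.05 CPM in control and 19.1, 12.6 and 16.4 CPM in NR4A2 hearts, with all NR4A2 hearts above all control hearts on 1 to 20 reads, and the difference did not pass (log2 fold change 1.58 ± 0.69, adjusted p = 0.108). Without NR4A2 mouse 3 the calls at regions 2 and 3 ended (adjusted p = 0.121 and 0.133). Without control mouse 3 that at region 2 ended (log2 fold change 1.17, adjusted p = 0.0585).

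Insr, the insulin receptor gene, had values on both sides of 0. Its region inside the gene, 42.0 kb from a gene end (chromosome 8, 3237441 to 3237666), held 17.4, 7.79 and 9.05 CPM in control and 16.2, 18.9 and 49.2 CPM in NR4A2 hearts. Only NR4A2 mouse 3 stood clearly above the control hearts (log2 fold change 1.13 ± 0.48, adjusted p = 0.0967). With edgeR on recovered reads this region passed (adjusted p = 0.0496). Another region (chromosome 8, 3279355 to 3279663) covers the higher-coordinate end of the gene span. It held 43.0, 43.8 and 74.2 CPM in control and 30.6, 25.2 and 32.8 CPM in NR4A2 hearts. All NR4A2 hearts lay below all control hearts (log2 fold change -0.80 ± 0.32, adjusted p = 0.0654). At Igf1r, the receptor for insulin-like growth factor, the promoter region had a log2 fold change of -0.27 ± 0.23, adjusted p = 0.472. A region inside the gene, 104 kb from its end, held 68.6, 53.5 and 86.9 CPM in control and 34.4, 47.3 and 49.2 CPM in NR4A2 hearts, all NR4A2 hearts below all control hearts without passing (log2 fold change -0.65 ± 0.27, adjusted p = 0.0841). For Erbb2, the partner of the other ERBB receptors, the promoter region gave a log2 fold change of 0.19 (95% interval -0.37 to 0.76). The region beside Erbb3, an ERBB receptor with little kinase activity of its own, overlaps the promoter of Pa2g4 and gave a log2 fold change of -0.20 (95% interval -0.68 to 0.27). At Fgfr1, an FGF receptor gene, the region over the lower-coordinate end of the gene span gave a log2 fold change of -0.20 (95% interval -0.76 to 0.36). None of the 11 receptor regions was lower by limma, edgeR or DESeq2, and 2 had an unadjusted p under 0.05 in that direction by each tool. Over all regions, limma called 3.17% lower.

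Of the growth factor genes, Fgf12 held the gain with the smallest adjusted p of all 77 regions. Fgf12 encodes an FGF-related protein that stays inside the cell and modulates sodium channels. Its only region (chromosome 16, 28706476 to 28707225) lay inside the gene, 46.0 kb from the outer start. It held 14.3, 15.6 and 18.1 CPM in control hearts 1 to 3 and 76.4, 101 and 78.2 CPM in NR4A2 hearts 1 to 3. Every NR4A2 heart was more than 4 times above the highest control heart, and group means differed 5.32-fold (16.0 ± 1.92 against 85.2 ± 13.6 CPM, SD, n = 3). The log2 fold change was 2.34 ± 0.32, adjusted p = 2.08e-08, with a range of 2.10 to 2.42 over the 14 alternatives, and the call held under all of them.

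Vegfa, the main vascular growth factor gene, had 8 regions and no call. The longest, region 7 (chromosome 17, 46028297 to 46031481, 3185 bp), held 198, 219 and 282 CPM in control and 285, 322 and 319 CPM in NR4A2 hearts. The groups did not overlap, but the gap between them was small (log2 fold change 0.42 ± 0.16, adjusted p = 0.0610). Without control mouse 3 it passed (0.56, adjusted p = 0.00699). The promoter region of Vegfa, region 8, gave a log2 fold change of -0.31 (95% interval -0.67 to 0.05). The other 6 Vegfa regions had log2 fold changes from -0.02 to 0.46.

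Vegfb, whose product acts on vessels and fatty acid handling of the heart, had lower relative signal at its promoter. At region 4 (chromosome 19, 6987288 to 6987767), over the gene's start, control hearts held 52.3, 56.5 and 86.9 CPM and NR4A2 hearts 31.5, 31.5 and 37.8 CPM. All NR4A2 hearts lay below all control hearts, with a narrow spread among them (log2 fold change -0.90 ± 0.29, adjusted p = 0.0186). This region also lies within 10 kb of Dnajc4, Fkbp2, Nudt22, Ppp1r14b and Trpt1, among others. With control mouse 3 left out the call ended (-0.68, adjusted p = 0.167), as it did with NR4A2 mouse 1 left out (adjusted p = 0.0596). The other 5 regions near Vegfb, all outside the gene, had log2 fold changes from -0.73 to -0.05.

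**Figure D2:**
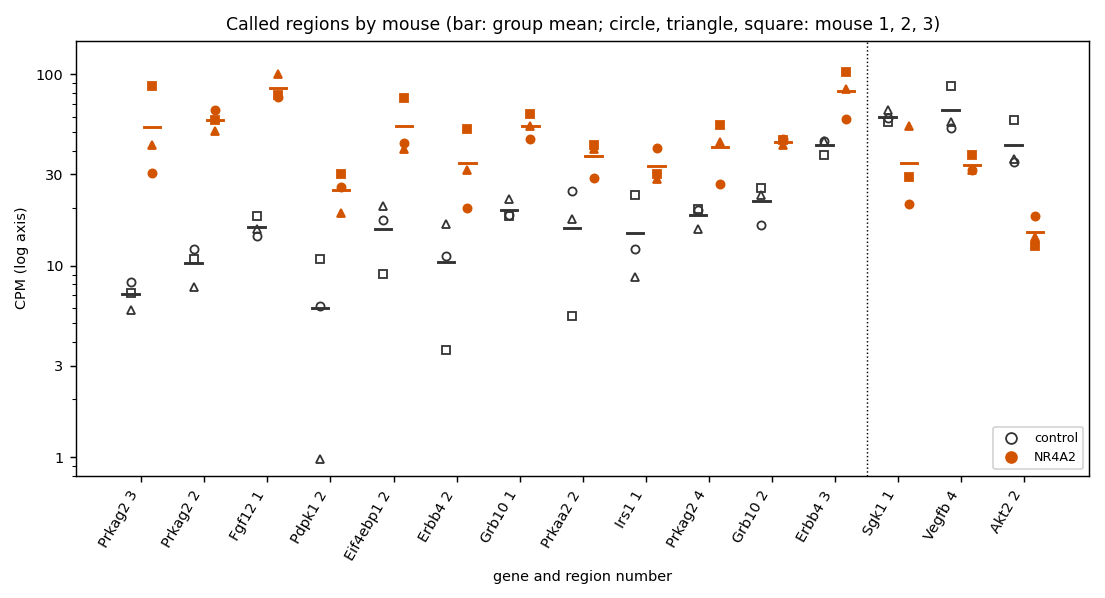
CPM of each mouse (log axis) at the 12 higher and 3 lower regions, left and right of the dotted line, with bars for the means of 3 mice. No region has overlapping groups: at Fgf12 region 1 control hearts sit between 14.3 and 18.1 CPM and NR4A2 hearts between 76.4 and 101 CPM.

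Both adaptor genes with gains gained away from the promoter. Irs1 encodes the docking protein that couples the insulin receptor to PI3-kinase. Its region 1 (chromosome 1, 82243099 to 82243434), 9.99 kb inside the far end of the gene, held 12.3, 8.76 and 23.5 CPM in control and 41.1, 28.4 and 30.3 CPM in NR4A2 hearts. The groups did not overlap, but control mouse 3 came near the lowest NR4A2 heart (log2 fold change 1.20 ± 0.43, adjusted p = 0.0359). The call ended without control mouse 1 (adjusted p = 0.0863), control mouse 2 (0.90, adjusted p = 0.179), NR4A2 mouse 1 (adjusted p = 0.168), mouse 2 (adjusted p = 0.0526) or mouse 3 (adjusted p = 0.0867). It also ended with DESeq2 (adjusted p = 0.0702). The Irs1 promoter region held 92.2, 68.1 and 83.3 CPM in control and 100.3, 129 and 105 CPM in NR4A2 hearts, with all NR4A2 hearts above all control hearts, and did not pass (log2 fold change 0.45 ± 0.21, adjusted p = 0.135). Of the other 3 Irs1 regions, none was called (0.06 to 0.60). Irs2, the related docking protein gene, had its only region at the promoter, with 126, 101 and 116 CPM in control and 117, 97.7 and 129.9 CPM in NR4A2 hearts, giving a log2 fold change of 0.00 (95% interval -0.39 to 0.40).

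Grb10 encodes an adaptor that binds and restrains the insulin and insulin-like growth factor receptors. It gained at a pair of regions 247 bases apart, 61.1 to 61.9 kb from the start. Region 1 (chromosome 11, 11965581 to 11966054) held 18.4, 22.4 and 18.1 CPM in control and 45.8, 53.6 and 61.8 CPM in NR4A2 hearts (on the log2 scale a change of 1.40 ± 0.34, adjusted p = 0.00127). Region 2 (chromosome 11, 11966302 to 11966832) held 16.4, 23.4 and 25.3 CPM in control and 45.8, 42.6 and 45.4 CPM in NR4A2 hearts (on the log2 scale a change of 1.03 ± 0.35, adjusted p = 0.0283). In both, each NR4A2 heart exceeded each control heart by more than 1.6 times. The promoter region of Grb10 gave a log2 fold change of -0.18 (95% interval -0.75 to 0.39). The call at region 2 ended without control mouse 1 (adjusted p = 0.123), NR4A2 mouse 1 (adjusted p = 0.0890), mouse 2 (adjusted p = 0.0625) or mouse 3 (adjusted p = 0.0899). It also ended with DESeq2 (adjusted p = 0.0517).

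In the PI3-kinase step, Pdpk1 was called and the kinase subunit genes were not. Pdpk1 encodes PDK1, the kinase that phosphorylates AKT and related kinases in their activation loop. Its region 2 (chromosome 17, 24129860 to 24130118), inside the gene and 11.5 kb from a listed start, was weak in control hearts, with 6.15, 0.973 and 10.9 CPM. That is 6, 1 and 6 reads, against 27, 12 and 24 reads in NR4A2 hearts (25.8, 18.9 and 30.3 CPM). The groups did not overlap (log2 fold change 2.21 ± 0.62, adjusted p = 0.00529), and counting error is large at such depths. The call ended without control mouse 2 (1.47, adjusted p = 0.0555) and without NR4A2 mouse 3 (adjusted p = 0.0645). At the Pdpk1 promoter the values gave a log2 fold change of -0.35 (95% interval -0.81 to 0.10). Pik3ca, the gene of the catalytic alpha subunit, gave a log2 fold change of -0.06 (95% interval -0.43 to 0.31) at its promoter. Pik3r1, the gene of a regulatory subunit, gave a log2 fold change of -0.28 (95% interval -0.65 to 0.09) at its promoter. A region 0.853 kb inside Pik3r1 held 38.9, 32.1 and 43.4 CPM in control and 27.7, 22.1 and 11.4 CPM in NR4A2 hearts, all lower without passing (log2 fold change -0.95 ± 0.38, adjusted p = 0.0721). It passed without NR4A2 mouse 1 (-1.20, adjusted p = 0.0470).

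Of the kinases further down, none of 15 regions was higher by limma, edgeR or DESeq2 or at an unadjusted p under 0.05. Over all regions, limma called 14.7% higher. Several of these 15 regions touch a promoter window, and of all regions that do, 1.48% were higher. Signal fell at Akt2 and Sgk1. Akt2 encodes the AKT form tied most closely to insulin-stimulated glucose uptake. Region 2 (chromosome 7, 27591801 to 27592173), 249 bp inside the start, held 34.8, 36.0 and 57.9 CPM in control and 18.1, 14.2 and 12.6 CPM in NR4A2 hearts. This was the steepest loss among the 77 regions, with all NR4A2 hearts below all control hearts (log2 fold change -1.43 ± 0.39, adjusted p = 0.00428). Region 1, which reaches to 47 bp before the start, held 21.5, 23.4 and 23.5 CPM in control and 20.1, 42.6 and 22.7 CPM in NR4A2 hearts and gave a log2 fold change of 0.23 (95% interval -0.55 to 1.01). Both regions also lie within 10 kb of 2310022A10Rik. The call ended without control mouse 3 (-1.20, adjusted p = 0.0610).

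Sgk1 encodes a kinase related to AKT that is induced by steroids and insulin. Its lower region (chromosome 10, 21952245 to 21952695) lay 26.0 kb from the nearest listed start and held 59.4, 65.2 and 56.1 CPM in control and 21.0, 53.6 and 29.0 CPM in NR4A2 hearts. NR4A2 mouse 2 was close to the lowest control heart, and the other two were well below (log2 fold change -0.89 ± 0.30, adjusted p = 0.0292). The call ended without control mouse 1 (adjusted p = 0.0715), control mouse 2 (adjusted p = 0.108), NR4A2 mouse 1 (-0.59, adjusted p = 0.222) or NR4A2 mouse 3 (adjusted p = 0.120). It also ended with DESeq2 (adjusted p = 0.0981) and among regions of at least median signal (adjusted p = 0.0752). Region 2 of Sgk1, 3726 bp long over 3 listed starts, carried the most signal of the 77 regions. It held 529.7, 618 and 548 CPM in control and 428, 574 and 395 CPM in NR4A2 hearts, with overlap between the groups (log2 fold change -0.30 ± 0.15, adjusted p = 0.179). It passed, lower, without NR4A2 mouse 2 (-0.46, adjusted p = 0.0489). The remaining 4 Sgk1 regions gave log2 fold changes of 0.11 to 0.28 without a call. Akt1, the AKT form tied to growth, gave a log2 fold change of -0.38 (95% interval -0.95 to 0.18) at its promoter region. At Gsk3a and Gsk3b, genes of the kinases that AKT inhibits, log2 fold changes were -0.34 to 0.39 over 5 regions, with no call.

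Of the genes that link AKT and mTOR to translation, Eif4ebp1 gained a region. Its product binds and blocks the cap-binding factor encoded by Eif4e until mTOR phosphorylates it. Region 2 (chromosome 8, 27261915 to 27262393), 1.59 kb inside the gene, held 17.4, 20.4 and 9.05 CPM in control and 43.9, 41.0 and 75.7 CPM in NR4A2 hearts. NR4A2 mouse 3 was highest and the groups did not overlap (log2 fold change 1.73 ± 0.38, adjusted p = 0.000298). The call held in all 13 alternatives that tested this region, with log2 fold changes of 1.40 to 1.95. Region 1, over the lower-coordinate end of the gene span and 1596 bp long, held 141, 127 and 138 CPM in control and 180.5, 154 and 145 CPM in NR4A2 hearts. It gave a log2 fold change of 0.23 (95% interval -0.13 to 0.60), its groups lying apart. Eif4ebp2, the related repressor gene, had its only region at the promoter, with 59.4, 56.5 and 97.7 CPM in control and 50.6, 41.0 and 34.1 CPM in NR4A2 hearts. Every NR4A2 heart was below every control heart (log2 fold change -0.72 ± 0.27, adjusted p = 0.0535). It passed, lower, in 5 of 14 alternatives, among them without control mouse 2 (-0.87, adjusted p = 0.0438), without NR4A2 mouse 1 (-0.87, adjusted p = 0.0495) and with the mouse number as a block (adjusted p = 0.0466). At the promoter, Eif4e gave a log2 fold change of -0.15 (95% interval -0.54 to 0.25). Rps6kb1, the S6 kinase gene, gave -0.05 (95% interval -0.70 to 0.59) there.

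AMPK genes held 4 of the 12 gains, among 14 regions, where 14.7% of all regions were higher. Of these 4 gains, 3 were at Prkag2. Prkag2 encodes the gamma-2 subunit, in which inherited mutations cause a heart muscle disease with glycogen storage. The gene spans 244 kb on chromosome 5, and regions 2, 3 and 4 fall within 5.84 kb of it, 13.0 to 18.4 kb past the middle of 3 listed starts. Region 2 (chromosome 5, 24976950 to 24977342) held 12.3, 7.79 and 10.9 CPM in control and 64.9, 50.4 and 58.0 CPM in NR4A2 hearts, a 5.60-fold difference of means (log2 fold change 2.39 ± 0.39, adjusted p = 1.74e-06). Each NR4A2 heart exceeded each control heart by more than 4 times.

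Region 3 of Prkag2 (chromosome 5, 24979776 to 24980226) held 8.20, 5.84 and 7.24 CPM in control and 30.6, 42.6 and 87.0 CPM in NR4A2 hearts. The NR4A2 hearts differed among themselves, with mouse 3 highest, and all lay above the control hearts (log2 fold change 2.62 ± 0.45, adjusted p = 4.25e-06, the largest of the 77 regions). In region 4 (chromosome 5, 24982237 to 24982789) the values were 19.5, 15.6 and 19.9 CPM in control and 26.7, 44.1 and 54.2 CPM in NR4A2 hearts (on the log2 scale a change of 1.10 ± 0.38, adjusted p = 0.0303). The calls at regions 2 and 3 held in all 13 alternatives that tested them. That at region 4 ended without control mouse 2 (adjusted p = 0.0924), NR4A2 mouse 2 (adjusted p = 0.108) or NR4A2 mouse 3 (adjusted p = 0.192). The regions over the outer and inner starts, regions 5 and 1, gave a log2 fold change of -0.44 (95% interval -1.25 to 0.37) and -0.07 (95% interval -0.68 to 0.55). No region was listed at the middle start.

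**Figure D3:**
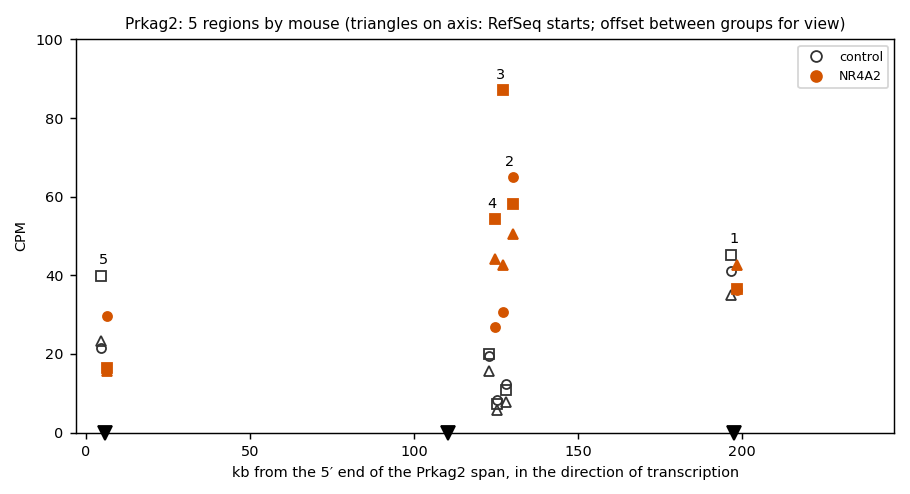
CPM of each mouse (y axis) at the 5 Prkag2 regions, placed by distance from the 5′ end of the gene span in the direction of transcription (x axis, kb), with listed starts as triangles. Regions 2, 3 and 4 separate the groups, while regions 5 and 1, each at a start, show overlapping mice.

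Prkaa2, the gene of the alpha-2 catalytic subunit that prevails in heart muscle, gained at region 2 (chromosome 4, 105101109 to 105101543), 8.36 kb inside the start. Control hearts held 24.6, 17.5 and 5.43 CPM and NR4A2 hearts 28.6, 41.0 and 42.9 CPM. The groups did not overlap, and control mouse 3 had only 3 reads (log2 fold change 1.39 ± 0.43, adjusted p = 0.0134). The call ended without control mouse 3 (0.80, adjusted p = 0.172), NR4A2 mouse 2 (adjusted p = 0.0512) or NR4A2 mouse 3 (adjusted p = 0.104), and with DESeq2 (adjusted p = 0.0884). Region 3, 0.677 kb from the start, held 13.3, 7.79 and 9.05 CPM in control and 25.8, 12.6 and 34.1 CPM in NR4A2 hearts without passing (log2 fold change 1.11 ± 0.50, adjusted p = 0.121). It passed without NR4A2 mouse 2 (1.50, adjusted p = 0.0483). The promoter region of Prkaa2 gave a log2 fold change of 0.06 (95% interval -0.53 to 0.65). The remaining AMPK subunit genes had a region at the promoter and no call. Prkaa1, the alpha-1 gene, held 65.6, 76.9 and 85.1 CPM in control and 44.9, 55.2 and 55.5 CPM in NR4A2 hearts, with every NR4A2 heart lower (log2 fold change -0.54 ± 0.25, adjusted p = 0.134). The beta subunit genes Prkab1 and Prkab2 gave a log2 fold change of -0.29 (95% interval -0.75 to 0.16) and -0.07 (95% interval -0.50 to 0.37) at the promoter. The gamma-1 gene Prkag1 gave a log2 fold change of -0.21 (95% interval -0.60 to 0.17). Stk11 encodes LKB1, the kinase that activates AMPK, and its nearest region lay 11.5 kb outside the gene with a log2 fold change of -0.28 ± 0.22 (adjusted p = 0.433).

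The 12 higher regions had their place in common, and most had low control signal. All 12 lay inside the gene span and outside the reach of any other gene, at 1.59 to 135 kb from the nearer gene end (median 35.4 kb). None of them was within 1 kb of a gene end, while 34 of the 62 uncalled regions and 2 of the 3 lower ones were. These distances were not taken over all regions, and they depend on gene length. A listed start can also be nearer than a gene end. Prkag2 regions 2 to 4 lay 114 to 120 kb from a gene end and 13.0 to 18.4 kb from a listed start. Their length was 259 to 847 bp (median 476.5 bp), near the median of 438 bp over all regions. Per length, their median signal was 32.9 CPM per kb in control and 97.7 CPM per kb in NR4A2 hearts, against 97.0 and 94.3 CPM per kb in the uncalled regions. By these medians the higher regions were weak in control hearts and reached the level per length of the uncalled regions in NR4A2 hearts. Both levels entered the fold change and the call, so this is a description and gives no support to the calls. Erbb4 region 3 held 42.6 CPM in control, above the median of 37.0 CPM over all regions. The uncalled regions include 24 over their own promoter. Over the whole table, 2379 of the 2475 higher regions touched no promoter window. Regions touching none had a median of 22.5 CPM in control, against 65.1 CPM in those touching one. Gains off promoters and their low control signal are thus not particular to the members. RefSeq spans do not tell exon from intron here. Over all 77 regions, NR4A2 hearts lay wholly above control hearts in 18 (23.4%, against 19.9% of all regions) and wholly below in 9 (11.7%, against 11.7%).

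**Figure D4:**
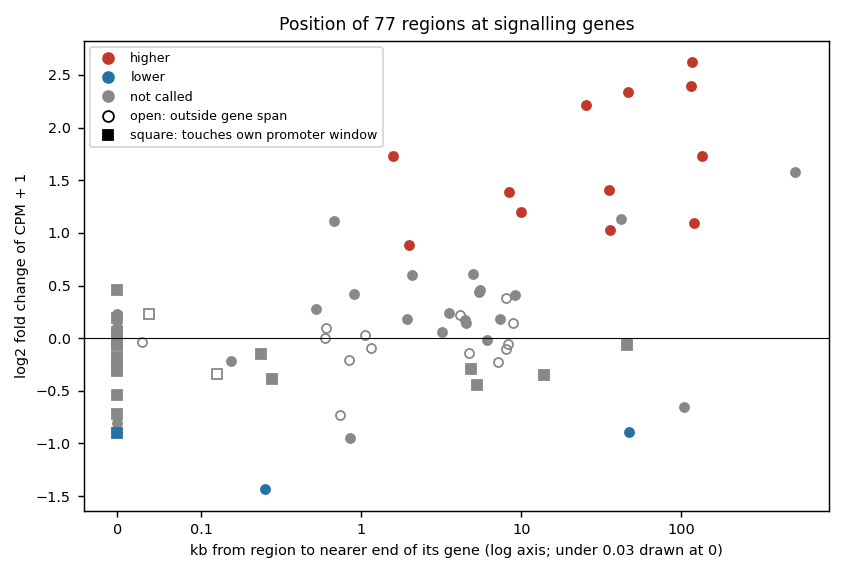
Log2 fold change of CPM + 1 (y axis) against distance to the nearer end of the gene (x axis, kb, log scale) for the 77 regions, means of 3 mice per group. The 12 higher regions lie at 1.59 kb or more from a gene end, and regions over promoters (squares) lie below 0.5 on the y axis.

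Ratios of regions within the same library depend little on how libraries were scaled. For 11 called regions, the log2 ratio to a promoter region of the same gene was taken in each mouse. Eif4ebp1 has no listed window, and the region over the lower-coordinate end of its span was used. At Prkag2 region 2 against region 1 it was -1.66, -2.04 and -1.96 in control hearts and 0.82, 0.24 and 0.65 in NR4A2 hearts. The region passed from below the promoter's level to above it in every NR4A2 heart. At Grb10 region 1 the ratio was -1.31, -0.87 and -1.71 in control and -0.11, 0.49 and 0.48 in NR4A2 hearts. At Akt2 the order turned the other way, from 0.67, 0.60 and 1.26 in control to -0.14, -1.52 and -0.80 in NR4A2 hearts. The groups did not overlap in 10 of the 11 ratios, and they overlapped at Irs1 (-2.81, -2.82 and -1.78 and -1.27, -2.15 and -1.76). These regions were chosen for their calls, so no test of the ratios is given.

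**Figure D5:**
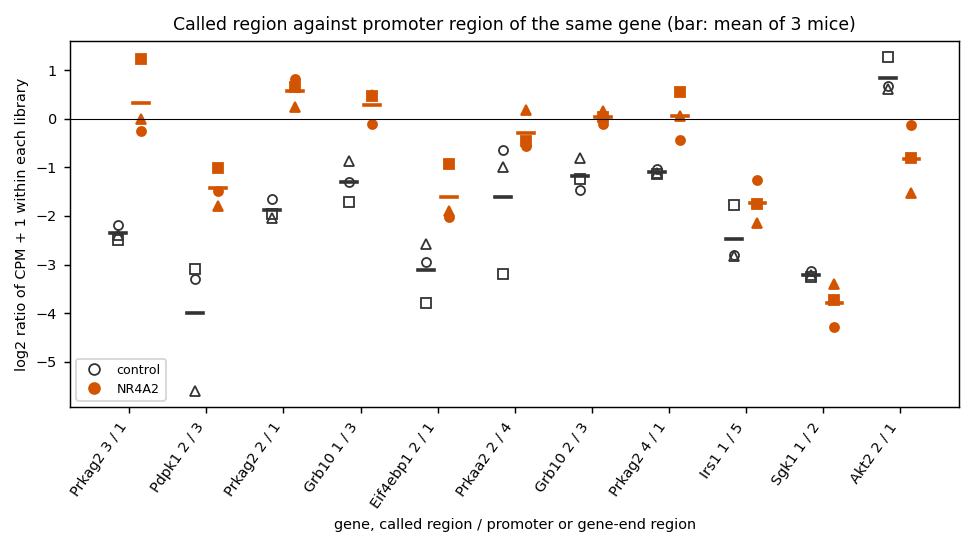
Log2 ratio of CPM + 1 at a called region to the promoter or gene-end region of the same gene within each library (y axis), for 11 called regions (x axis), with bars for the mean of 3 mice. Control and NR4A2 mice are apart in 10 pairs and overlap at Irs1.

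The wider pathways were read from 67 further genes, of which 57 had a region. Of these 57 genes, 12 had a higher region and 7 a lower one (against 14.2% and 6.25% of all genes with a region). Among their 172 regions, 21 were higher and 7 lower (against 14.7% and 3.17% of all regions). The lists below are to be read against these shares. In the insulin and PI3-kinase list, 28 genes had regions, 5 of them at least 1 higher and 2 a lower one. Ptpn1, the gene of a phosphatase that switches the insulin receptor off, had 1 of 2 regions higher, from 6.68 ± 3.36 to 43.2 ± 14.4 CPM (SD, n = 3; a log2 difference of 2.57 ± 0.48, adjusted p = 2.53e-05). Tbc1d4, the gene of an AKT substrate that holds back glucose transporters, had 3 of 4 regions higher, the one with the smallest p going from 5.50 ± 1.64 to 35.6 ± 12.9 CPM (SD, n = 3; a log2 difference of 2.47 ± 0.52, adjusted p = 0.000156). A region inside the span of Rheb, an activator of mTOR, fell from 109.6 ± 7.53 to 65.4 ± 10.8 CPM (SD, n = 3; a log2 difference of -0.75 ± 0.22, adjusted p = 0.00911). With NR4A2 mouse 3 left out its call ended (adjusted p = 0.0831), as it did with no depth scaling (adjusted p = 0.420). In the AMPK list, 5 of 11 genes had a higher and 4 a lower region, against 14.2% and 6.25% of all genes with a region. By region these were 6 and 4 of 29, against 14.7% and 3.17% of all regions, and nothing particular to the list is drawn from so few. A region just outside Camkk1, a kinase upstream of AMPK, rose from 3.88 ± 3.38 to 44.8 ± 15.5 CPM (SD, n = 3; a log2 difference of 3.38 ± 0.56, adjusted p = 1.94e-06) and also lies near Ncbp3. In the translation list the counts were 2 and 1 of 5 genes. The growth factor list, with ligands and receptors of the ERBB, VEGF and FGF families, had 0 higher and 0 lower regions among 31 regions at 13 genes by limma, where 14.7% and 3.17% of all regions were called. At an unadjusted p under 0.05 it had 1 and 4, with edgeR 0 and 1, and with DESeq2 0 and 0.

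In the authors' deposited table the calls at the 77 regions were the same as here in 77 of 77 cases, with 12 up and 3 down (against 14.9% and 1.95% of all regions). The table rests on the same reads. At the edges of the 10 kb extension, the farthest regions counted lay 8.80 kb from Akt1 (log2 fold change 0.14) and 8.29 kb from Vegfb (-0.05). The nearest ones left out lay 11.4 kb from Gsk3a (-0.79, adjusted p = 0.174) and 11.5 kb from Stk11, and none of these 4 was called.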

How the data were processed

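The deposited table of the authors gives CPM for each of 6 hearts at 16884 regions. Reads were aligned with BWA to GRCm38 (mm10), per the submitters' processing notes. The sources used here name neither the peak caller nor any scaling by the fly chromatin spike-in. Every CPM value was a whole multiple of 1 read (tolerance 0.001). The authors' log2 fold changes and p-values were used only for their calls. Region length is as deposited by the authors.

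Log2(CPM + 1) was tested with limma 3.58.1 (trend, robust, genotype only), with Benjamini-Hochberg adjustment over all regions. Alternatives included edgeR 4.0.16 and DESeq2 1.42.0 on recovered reads, under R 4.3.3. In simulated data with 100 regions each changed by 1 or 2 on the log2 scale, limma recovered 44 and 85, with 4 false calls. These changes were equally up and down and made up a smaller share of regions than was called here. The rates may therefore not carry over to the real fit. Members and lists were chosen with earlier results of these data known. Named were each called member's region of smallest adjusted p, each uncalled member's strongest region, and, beyond this rule and after values were seen, other regions of members and 4 further pathway genes. Gene symbols, spans and promoter sequences came from RefSeq (GRCm38.p6). Another 3 samples of the series were not analysed here. Labels do not say that mouse numbers pair mice.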

Additional observations from a re-analysis of the deposited data

How the results depend on the processing

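No called result changed direction under the alternatives run. Without depth scaling, 1398 regions were higher and 14 lower in all (main values 2475 and 536), with 5 higher and 0 lower member regions at 4 and 0 member genes. Among the 8442 regions of at least median signal the counts were 481 and 235 in all, with 2 and 1 of 48 member regions at 2 and 1 genes. This setting tests fewer regions. For the other changes the cause was not tested. DESeq2 called 251 lower regions in all. Member regions called higher and lower numbered 13 and 3 with edgeR, 9 and 2 with DESeq2, 12 and 4 with median-ratio factors and 12 and 3 or 12 and 4 with other pseudocounts or gene span extensions of 0, 5 or 20 kb. Leaving out 1 mouse at a time gave 1577 to 2332 higher and 270 to 454 lower regions in all. Member regions ranged from 5 to 11 higher and from 1 to 4 lower, at 4 to 8 and 1 to 3 genes. With the mouse number as a replicate block the counts were 2540 and 580 in all, and 12 and 4 member regions at 8 and 4 genes, Eif4ebp2 being the added one. Deviations of same-numbered mice correlated at -0.066, 0.061 and 0.033. Values near 0 from 3 mice per group cannot exclude pairing, so whether the numbers pair mice is not known. Precision is limited by 3 mice per group and by control values of few reads at several of the higher regions.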
